A study of Mus musculus with 1 sample.

Results

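The 10 genes described here belong to the interleukin-6 (IL-6) signalling route: the cytokine genes Il6, Il11 and Lif, the receptor genes Il6st, Il6ra, Il11ra1, Lifr and Osmr, the transcription factor gene Stat3 and the inhibitor gene Socs3. They were taken by gene name from the deposited table of 1 RNA sequencing library, and each of the 10 names had exactly 1 row among the 23386 genes of the table, 20559 of them protein-coding. The library was made from total RNA of a mouse fibroblast culture that had been expanded from normal pancreas. By its labels the animal was of mixed C57BL/6 and BALB/c background, and the genotype label gives it as Cre-negative (tf1acre-) with floxed alleles of a gene spelled Tgfrb2 (Tgfrb2flox/flox). Its age is not given in the labels used here, nor are the passage, the medium and the serum of the culture. The series set such normal fibroblasts against cancer-associated fibroblasts, and the comparison group was not analysed here. The value column of its table carries a CAF code, which disagrees with that label, so the text speaks of the library labelled normal fibroblast. There is no replicate and no second group: no test between conditions was possible, and each interval below is a 95% interval that covers counting error only.

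Most cytokines of the IL-6 family signal through a shared receptor chain, gp130, the product of Il6st. IL-6 and IL-11 first bind their own alpha chains, the products of Il6ra and Il11ra1, and then 2 gp130 chains. LIF instead pairs gp130 with the LIF receptor chain (Lifr), and oncostatin M in the mouse pairs it mainly with the oncostatin M receptor chain (Osmr). Janus kinases on the receptor tails then phosphorylate STAT3, which enters the nucleus and induces, among others, Socs3, whose protein blocks gp130 in a feedback loop. Pancreatic fibroblasts are known as a source of IL-6 and LIF in pancreatic tumours, where these cytokines mark an inflammatory fibroblast state.

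The culture carried fibroblast transcripts, and most leukocyte and endothelial markers were low, but mesothelial and most acinar markers were not. The library held 52494688 reads. Levels are given in reads per 1000000 reads of the table (CPM) and, for most comparisons between genes, in CPM per 1000 bases (kb) of exonic length. The sums over marker lists are in CPM, with no division by length. All 11 fibroblast markers had at least 10 reads, with Col1a1, which encodes a type I collagen chain, at 2785 CPM, but Fap had only 29 reads (0.0976 CPM per kb) and Lum 278 reads (2.16 CPM per kb). The leukocyte marker Ptprc had 26 reads and the endothelial markers Pecam1 and Cdh5 had 13 and 17. All 10 macrophage and leukocyte markers together summed to 28.8 CPM, led by Lyz2 at 9.20 CPM. Of them, 7 of 10 had at least 10 reads, beside 67.8% of coding genes. Lyz2 had 483 reads (6.99 CPM per kb), Cd14 372 (4.09), Cd68 235 (3.56) and Csf1r 268 (0.884). These levels lay within or above those of the low members, such as Il6 at 1.14 and Il6ra at 0.802. The rest of the list was at or below 0.319, the level of Itgam. Of the 8 endothelial markers, which summed to 286 CPM, 7 had at least 10 reads, and the VEGF receptor genes Kdr and Flt1 stood apart with 181 and 102 CPM. The 8 ductal epithelial markers summed to 45.6 CPM, led by Krt18 at 11.8 CPM, and Epcam had 61 reads. Mesothelial markers were higher, with Msln at 90.7 CPM, Bnc1 at 472 CPM and a sum of 1279 CPM over 8 genes. Acinar markers summed to 333 CPM over 8 genes, with Cpb1 at 87.2 CPM. The median was 36.6 CPM per kb for the mesothelial list and 24.8 for the acinar list. Beside these stands a median of 4.94 for coding genes with at least 10 reads, which 8 mesothelial and 6 acinar markers exceeded. Of all coding genes, 33.9% exceeded it. Ctrb1 led the acinar list at 58.5 CPM per kb, whereas Prss1 and Ptf1a had 6 reads each. Which of these cells the members' reads came from was not tested, and in a bulk library fewer cells of a type and less RNA per cell cannot be told apart.

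All 10 members had at least 10 reads, against 67.8% of 20400 protein-coding genes with a known exonic length. Their levels spanned from 0.375 to 41.0 CPM per kb. The median of the 10 members was 3.98 CPM per kb, beside 1.19 over all protein-coding genes and 4.94 over those with at least 10 reads. The members fell on both sides of the latter: Il6st, Stat3, Lif, Osmr and Socs3 lay above the median of detected coding genes, and Il6, Il6ra, Il11ra1, Lifr and Il11 lay below it. That is 5 of 10 above, where 33.9% of coding genes are. In order of level per kb the members ran Il6st, Stat3, Lif, Osmr, Socs3, Il6, Il6ra, Il11ra1, Lifr, Il11. Of the 9 neighbouring pairs in that order, the counting interval of the ratio held 1 in 2: Il6ra was 1.03 times Il11ra1 (0.864 to 1.24), and Lifr was 1.17 times Il11 (0.837 to 1.67). Other neighbours differed by more than counting error, but 3 of these steps turned with the length used, which is given where the genes are described.

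**Figure D1:**
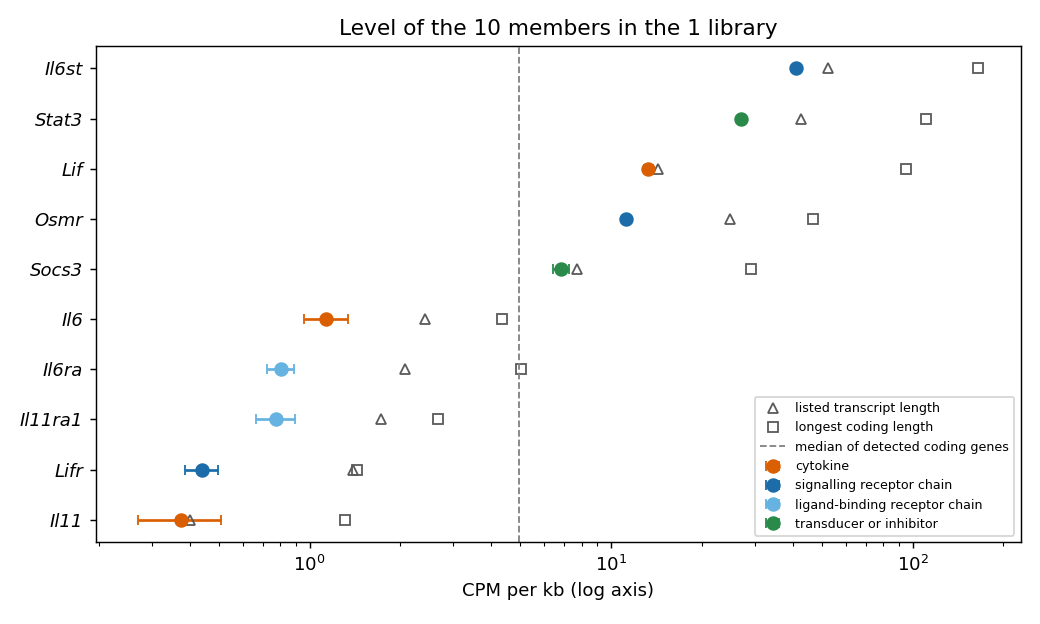
Level of each of the 10 members in CPM per kb on a log axis; filled points use the exonic length, with 95% counting intervals, and open triangles and squares use the length of the listed transcripts or the longest coding length. The dashed line, 4.94 CPM per kb, is the median of detected coding genes on the exonic scale and applies to the filled points alone. Among the filled points, Il6st stands highest at 41.0 CPM per kb, and Il6, Il6ra, Il11ra1, Lifr and Il11 lie at or below 1.14.

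Among the 3 cytokine genes, Lif was by far the most abundant. Lif encodes leukaemia inhibitory factor, which signals through LIFR and gp130 (GRCm38 chromosome 11, 4257568 to 4272514). It had a deposited value of 3567.02, or 3033 reads, which is 57.8 CPM (55.7 to 59.9) and 13.3 CPM per kb (12.8 to 13.8). Il6 (chromosome 5, 30013114 to 30019975), the founding cytokine of the family, had a deposited value of 170.53, or 145 reads, 2.76 CPM (2.33 to 3.25) and 1.14 CPM per kb (0.960 to 1.34). Il11 (chromosome 7, 4772373 to 4782907), a cytokine tied to fibroblast activation, had a deposited value of 48.22, or 41 reads, 0.781 CPM (0.560 to 1.06) and 0.375 CPM per kb (0.269 to 0.509). Lif was thus at percentile 83.4 of coding genes per kb, while Il6 was at 49.7 and Il11 at 43.6, close to the middle of all coding genes. Among coding genes with at least 10 reads, Lif was at percentile 75.6, Il6 at 25.8 and Il11 at 16.8. Per kb, Lif exceeded Il6 11.7-fold (9.88 to 13.9). That ratio was 5.93 with the length of the listed transcripts, 20.9 with no division by length and 21.7 with coding length. Lif exceeded Il11 35.4-fold (26.0 to 49.4) per kb, and 72.5-fold with coding length. Il6 was 3.03 times Il11 (2.13 to 4.40), or 6.04 times with the listed transcripts.

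The 250 bases before the RefSeq start sites of Il6 and Lif are shown because the one was low and the other the most abundant of the 3 cytokine genes, and those of Socs3 because it is the feedback gene of the route. Sequences are from RefSeq (GRCm38.p6), 5′ to 3′ on the strand of the gene, with motif matches in capitals. All 10 members matched the promoter table, with 13 start sites. The RefSeq gene spans given here reach beyond some of these start sites, and 6 of the 13 windows, that of Socs3 among them, lie wholly inside the span of their gene. The motifs searched on both strands were TTCNNNGAA, the palindrome that STAT dimers bind, TGANTCA for AP-1 and GGANTTTCC for NF-kappaB.
Il6 (chr5:30012864-30013113, plus strand): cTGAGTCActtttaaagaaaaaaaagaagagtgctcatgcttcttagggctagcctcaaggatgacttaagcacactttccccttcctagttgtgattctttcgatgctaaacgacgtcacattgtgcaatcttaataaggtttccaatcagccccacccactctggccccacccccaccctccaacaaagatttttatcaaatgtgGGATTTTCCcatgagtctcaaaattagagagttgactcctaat
Lif (chr11:4257318-4257567, plus strand): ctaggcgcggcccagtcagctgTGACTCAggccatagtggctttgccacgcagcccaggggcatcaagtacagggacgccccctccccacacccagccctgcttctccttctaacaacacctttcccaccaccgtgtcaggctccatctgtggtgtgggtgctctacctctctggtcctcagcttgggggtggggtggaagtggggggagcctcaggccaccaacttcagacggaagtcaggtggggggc
Socs3 (chr11:117969367-117969616, minus strand): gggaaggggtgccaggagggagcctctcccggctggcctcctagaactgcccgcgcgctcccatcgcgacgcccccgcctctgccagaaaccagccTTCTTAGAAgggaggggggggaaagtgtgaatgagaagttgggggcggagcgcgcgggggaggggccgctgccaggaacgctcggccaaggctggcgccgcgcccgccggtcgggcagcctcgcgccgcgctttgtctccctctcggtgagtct
The Il6 window held an AP-1 match that begins 249 bases before the start and an NF-kappaB match that begins 43 bases before it. The Lif window held an AP-1 match 228 bases before the start, and the Socs3 window a STAT match 154 bases before it. One more AP-1 match lay 98 bases before 1 of the 2 start sites of Il11. The other 9 of 13 windows, those of Il6st, Stat3 and Osmr among them, held none of the 3 motifs. Of 19963 such windows of coding genes, 6.62% held the STAT motif, 6.25% the AP-1 motif and 1.1% the NF-kappaB motif. A match describes these letters and is not a measured binding site.

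Of the other ligand genes of the family, 8 were examined, and they were split as well. Clcf1, the gene of a cytokine that acts on the CNTF receptor, had 1265 reads, 24.1 CPM (22.8 to 25.5) and 6.33 CPM per kb (5.99 to 6.69). Cntf, the ciliary neurotrophic factor gene, had 226 reads and 4.01 CPM per kb, and Ctf1, the cardiotrophin gene, had 332 reads and 3.47 CPM per kb. Exon overlaps with other genes were looked up for the members only, not for these genes. The remaining 5 stayed below 10 reads. Osm, the oncostatin M gene, had 7 reads, Il31 had 4, Ebi3 had 2, Ctf2 had 1 and Il27 had 0. The counting interval of Il27 reached up to 0.0703 CPM. So 3 of 8 had at least 10 reads, beside 67.8% of coding genes, and the median of the 8 was 0.0609 CPM per kb. Together the 11 ligand genes examined, members included, summed to 28.8 CPM per kb, of which Lif gave 46.2% and Clcf1 22.0%, against 3.95% for Il6. Lif was 2.10 times Clcf1 (1.96 to 2.24) per kb, and 1.10 times with the length of the listed transcripts. Among these 11 genes Lif was the first, Il6 the fifth and Il11 the sixth with each of the 4 ways of treating length.

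Among the receptor chains, gp130 was plentiful at the RNA level and the other member chains were mostly low. Il6st (chromosome 13, 112464070 to 112506860), the gp130 gene, had a deposited value of 28075.15, or 23872 reads, 455 CPM (449 to 461) and 41.0 CPM per kb (40.5 to 41.5). It was at rank 267 of all genes by CPM and at percentile 95.7 of coding genes per kb. Osmr (chromosome 15, 6813568 to 6874968), the oncostatin M receptor gene, had a deposited value of 8400.67, or 7143 reads, 136 CPM (133 to 139) and 11.2 CPM per kb (11.0 to 11.5), at percentile 80.7. The other 3 chains had between 182 and 364 reads.

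Lifr (chromosome 15, 7090610 to 7197489), which completes the LIF receptor, had a deposited value of 291.67, or 248 reads, 4.72 CPM (4.15 to 5.35) and 0.438 CPM per kb (0.386 to 0.497), at percentile 44.3. Il6ra (chromosome 3, 89869324 to 89913196), the IL-6 binding chain, had a deposited value of 428.09, or 364 reads, 6.93 CPM (6.24 to 7.68) and 0.802 CPM per kb (0.722 to 0.889). Il11ra1 (chromosome 4, 41760443 to 41769473), the IL-11 binding chain, had a deposited value of 214.04, or 182 reads, 3.47 CPM (2.98 to 4.01) and 0.775 CPM per kb (0.667 to 0.897). These 3 chains lay at percentiles 44.3 to 47.5 of all coding genes per kb, slightly below the middle. Among coding genes with at least 10 reads, they lay lower, at percentiles 17.9 to 22.5. The order of Il11ra1 and Lifr turned with length: Il11ra1 was 1.77 times Lifr per kb (1.45 to 2.15) and 0.734 times without division. Mouse Il11ra1 has near-identical copies, and 3 of them (Il11ra2, Gm13305 and Gm2002) had 2 reads each over 4 rows. Not given in the sources used here is how the authors treated reads shared by copies, and the level of Il11ra1 is uncertain. Il6ra shares 242 exonic bases (2.80% of its exonic length) with Gm42809, an antisense gene, and Il11ra1 shares 8 with Ccl27a. Reads of such partners cannot be told apart here.

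Set against each other per kb, the chains were far from equal. Il6st exceeded Lifr 93.5-fold (82.5 to 106), or 37.6-fold with the length of the listed transcripts. It exceeded Il6ra 51.1-fold (46.0 to 56.8), or 25.3-fold with the listed transcripts and 32.9-fold with coding length. The ratio to Il11ra1 was 52.8 (45.7 to 61.5), 30.4 with the listed transcripts and 131 without division. The gap to Osmr was the smallest, at 3.65-fold (3.55 to 3.75), or 2.11-fold with the listed transcripts. Osmr exceeded Lifr 25.6-fold (22.6 to 29.2), and this ratio moved by less than 1.5 times under the other lengths. Il6st gave 72.9% of the summed per-kb level of the 9 chains of the family, Osmr 20.0% and Lifr 0.780%.

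Ligand genes and the genes of the chains named after them lay far apart for LIF and oncostatin M and nearer for IL-6 and IL-11. Lif, the abundant cytokine, stood 30.3-fold (26.6 to 34.6) above Lifr per kb, and 10.3-fold above with the listed transcripts, 12.2-fold without division and 65.8-fold with coding length. Osmr stood at 11.2 CPM per kb, while the oncostatin M gene Osm had 7 reads. The ratio of Osmr to Osm was 191 (92.8 to 476) per kb and higher still without division (1020). Il6 and Il6ra were both low and near each other: Il6 was 1.42 times Il6ra per kb (1.16 to 1.72), 0.398 times without division and 0.868 times with coding length. Il11ra1 was 2.07 times Il11 (1.47 to 2.98) per kb, and 4.44 times without division. Lif itself was 1.18 times Osmr (1.13 to 1.23) per kb and 0.425 times without division. The family chains outside the members were low as well: Cntfr, the CNTF receptor gene, had 155 reads and 1.06 CPM per kb, Il27ra had 161 reads and 0.878 CPM per kb, Il31ra had 3 reads and Il11ra2 had 2.

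**Figure D2:**
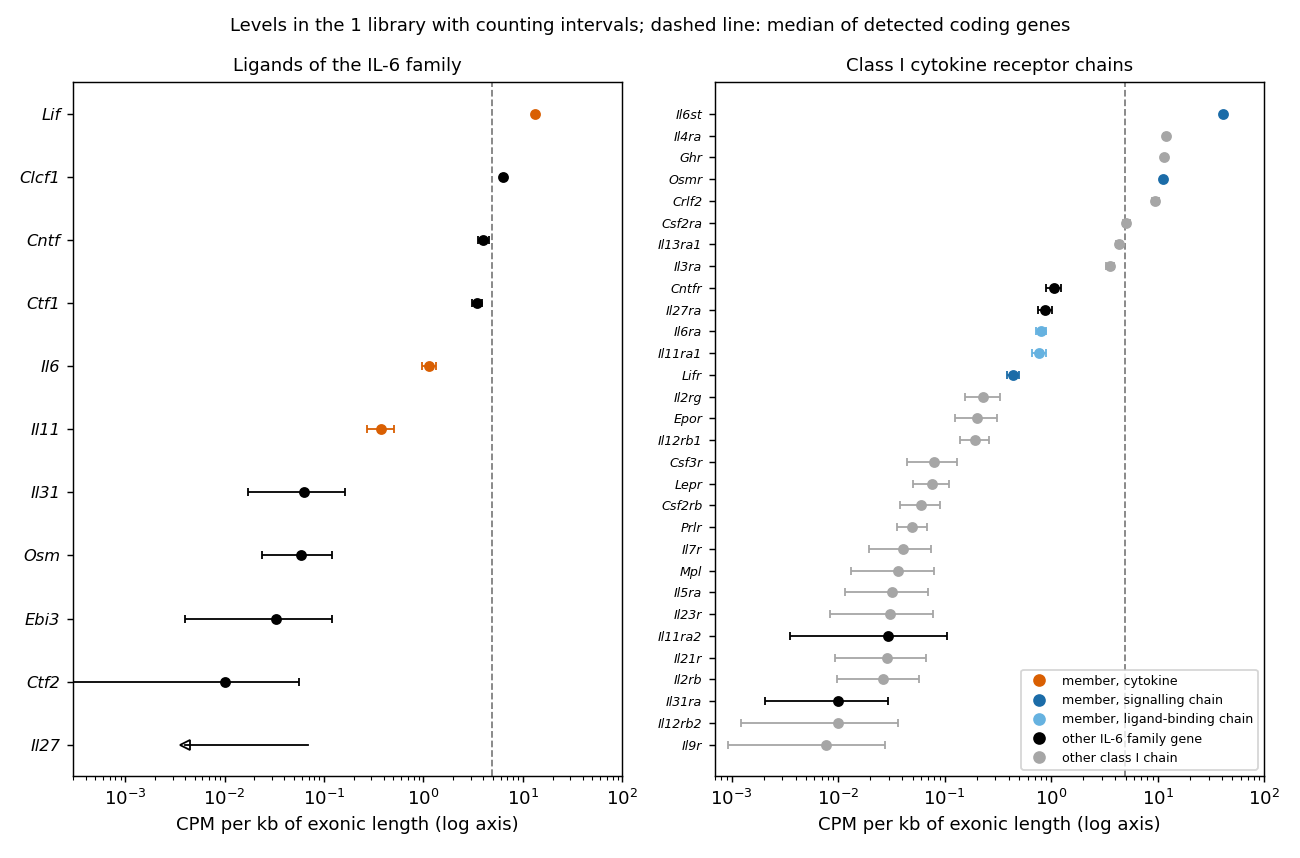
Levels of 11 IL-6 family ligand genes (left) and of 30 class I cytokine receptor chains (right) in CPM per kb of exonic length on log axes, with 95% counting intervals; members are coloured, other family genes black and other class I chains grey, and the open triangle marks Il27 with 0 reads. Lif is the first of these ligands and Il6 the fifth, and Il6st leads the receptor chains while Osmr is at rank 4 and Lifr at rank 13.

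The receptors were also set among the 21 class I cytokine receptor chains outside the family, the wider class to which gp130 belongs. Of those, 14 (66.7%) had at least 10 reads, near the 67.8% of all coding genes. The median of the 21 was 0.0757 CPM per kb. The leading ones were Il4ra, the IL-4 receptor gene, at 11.9 CPM per kb, Ghr, the growth hormone receptor gene, at 11.5, and Crlf2 at 9.51. Il6st was the first of all 30 chains and gave 39.7% of their summed per-kb level. It exceeded Il4ra 3.43-fold (3.31 to 3.55) and Ghr 3.55-fold (3.45 to 3.66), and 6.34-fold and 4.35-fold without division by length. Osmr was 0.973 times Ghr (0.939 to 1.01), an interval that holds 1, and its place among the 30 was between the second and the fourth with the 4 lengths. Il6ra, Il11ra1 and Lifr, at ranks 11, 12 and 13 per kb, stood above 15 of the 21 outside chains. A list of 18 other helical cytokine genes holds ligands for many of those outside chains but none for Ghr or Prlr. These genes were mostly low, with 4 of 18 at 10 reads or more, beside 67.8% of coding genes. The median of the 18 was 0.0352 CPM per kb. Their leaders were Tslp at 1.98 and Thpo at 1.28 CPM per kb, beside 1.14 for Il6.

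Stat3 (chromosome 11, 100886806 to 100939594), the transcription factor that the receptors activate, had a deposited value of 15848.73, or 13476 reads. That is 257 CPM (252 to 261) and 26.9 CPM per kb (26.5 to 27.4), at rank 620 of all genes and percentile 92.4 of coding genes per kb. By CPM it was the first of the 6 STAT genes examined. Per kb of exonic length Stat6, which serves IL-4 and IL-13, stood 1.85-fold (1.81 to 1.90) above Stat3, but 0.856 times without division and 0.787 times with coding length, so the order of these genes depends on the length. Stat3 exceeded Stat5b 2.40-fold (2.31 to 2.49) per kb and Stat2 2.56-fold (2.46 to 2.66). Without division both ratios were 4.12, and with coding length the ratio to Stat2 was 4.94. Stat4, a STAT of lymphocytes, had 2 reads. Stat3 gave 26.6% of the summed per-kb level of the 6 genes, and 43.6% with coding length. Its exons share 72 bases (0.756% of its exonic length) with Stat5a on the other strand.

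The kinases between receptor and STAT3 were present. Jak2 had 59.2 CPM per kb (15625 reads) and Jak1, the main kinase of gp130, 32.3 (12260 reads). Tyk2 was lower at 3.71 CPM per kb, with Jak1 8.70-fold (8.23 to 9.22) above it, and Jak3, a kinase of blood cells, had 0.883. The adaptors that couple gp130 to the ERK and YAP routes were present throughout. All 7 passed 10 reads and exceeded the median of detected coding genes, which 67.8% and 33.9% of coding genes did. They were led by Ptpn11, the SHP2 phosphatase gene, at 37.0 CPM per kb, Src at 21.4 and Gab1 at 12.6. Of the proteases that can release the IL-6 receptor from the surface, Adam10 had 55.2 CPM per kb and Adam17 9.68.

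Socs3 (chromosome 11, 117966079 to 117970336), the feedback inhibitor of gp130, was at an intermediate level. It had a deposited value of 1216.06, or 1034 reads, 19.7 CPM (18.5 to 20.9) and 6.81 CPM per kb (6.40 to 7.24), at percentile 71.8 of coding genes per kb. Socs5, of the same family, was far higher, with 19855 reads, 378 CPM and 59.0 CPM per kb, 8.65-fold (8.13 to 9.22) above Socs3 per kb and 19.2-fold without division. Socs3 was 1.02 times Socs7 (0.949 to 1.10), a difference within counting error that became 0.406 without division. Socs1, the inhibitor best known from interferon signalling, had 38 reads, and Socs3 exceeded it 27.4-fold (19.8 to 38.9). Socs5 gave 69.9% of the summed per-kb level of the 8 SOCS family genes, and Socs3 gave 8.08%; by CPM Socs3 gave 3.59% and was the fifth of the 8. In the wider list of 14 inhibitors of JAK and STAT, Socs3 left out, every gene passed 10 reads and 8 exceeded the median of detected coding genes. Of all coding genes, 67.8% and 33.9% did so. After Socs5 the leaders were Pias2, a SUMO ligase gene, at 20.1 CPM per kb and the phosphatase gene Ptpn2 at 10.4.

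Genes known to be induced by STAT3 ran from abundant to scarce. The list, with Socs3 and Osmr left out, holds 21 genes, many of which also answer to other factors, so their levels are no reading of STAT3 activity. All 21 passed 10 reads, beside 67.8% of coding genes, and 13 exceeded the median of detected coding genes, beside 33.9%. The median of the 21 was 15.3 CPM per kb. Timp1, which encodes an inhibitor of matrix proteases, had 455 CPM per kb, the cyclin gene Ccnd1 76.4, Hif1a 66.7, Vegfa 45.3 and Myc 40.4. The early gene Fos had 38.9, Cebpb 30.9, Junb 21.2 and Pim3 15.3. The 8 genes below the median of detected coding genes were Lbp at 4.49 CPM per kb, Bcl3 at 4.27, Bcl6 at 3.69, Cebpd at 1.91, Hp at 1.33, Icam1 at 0.537, Saa3 at 0.490 and Lcn2 at 0.145 (20 reads). Lbp, Hp and Saa3 are known as acute-phase genes. Within this list and its 2 added members, Timp1 alone gave 50.3% of the summed per-kb level, but 29.5% with coding length and 18.2% by CPM.

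Of 4 genes for signals known to induce Il6 and Lif in fibroblasts, 3 were scarce: Il1b had 2 reads, Tnf 5 and Il1a 12. Tgfb1, the fourth, had 376 reads or 1.42 CPM per kb, at percentile 51.2 of coding genes. The 5 genes for receptors of these signals all passed 10 reads, beside 67.8% of coding genes, and had a median of 15.2 CPM per kb. Tnfrsf1a, a TNF receptor gene, had 53.4, Tgfbr2 24.6, Tgfbr1 15.2, Il1r1, the IL-1 receptor gene, 9.58, and its partner Il1rap 3.96. Their ligands in the culture medium were not measured.

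**Figure D3:**
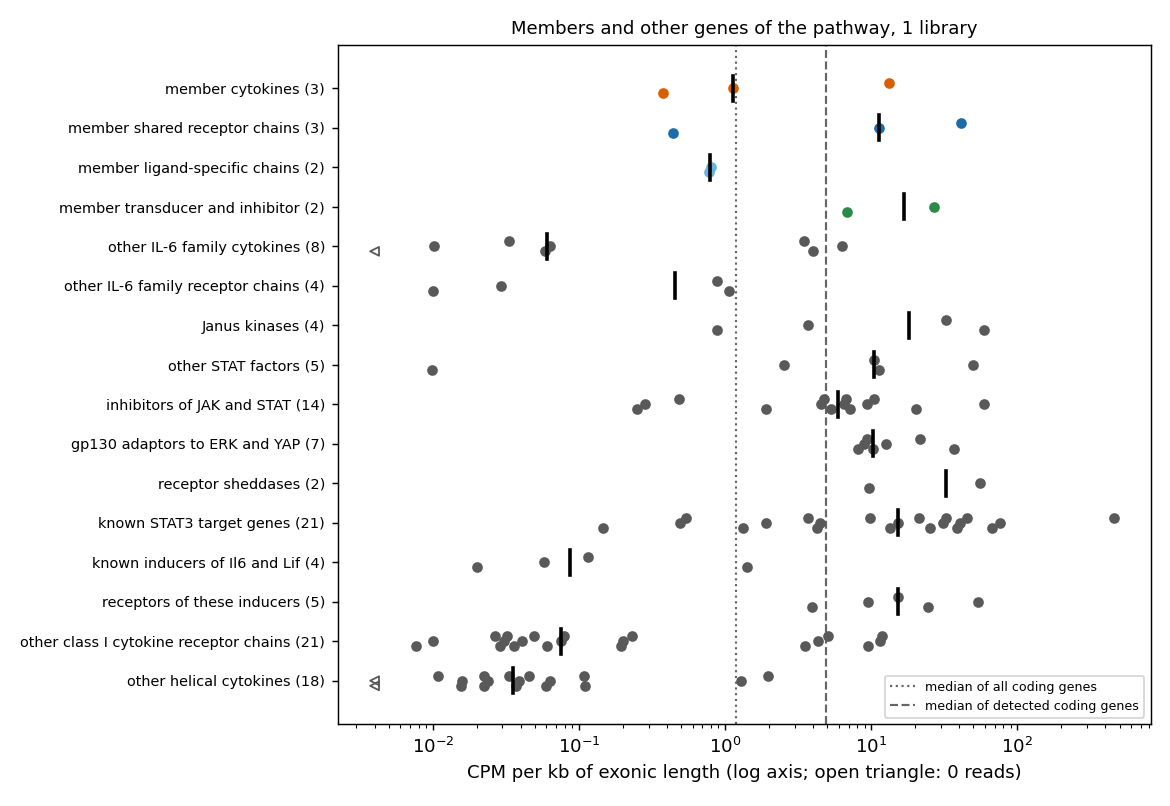
Level of every gene of the 4 member groups (coloured) and of 12 further lists (grey) in CPM per kb of exonic length on a log axis, with the number of genes in brackets; black bars are list medians, open triangles mark genes with 0 reads, and the dotted and dashed lines are the medians of all coding genes (1.19) and of detected ones (4.94). The lists of kinases, adaptors, sheddases, STAT3 targets and inducer receptors have medians of 10.2 CPM per kb or more, whereas the other family cytokines, the inducers, the outside receptor chains and the outside cytokines have medians below 0.1.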

How the data were processed

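Per the labels, RNA was isolated with TRIzol and sequenced from a library of standard SOLiD type. The authors' deposited signal is 1 value per row for 24214 rows; the submitters' processing notes name DESeq and mm10, with no role. Not given in the sources used here are the aligner, any filter, and how and with which strand setting reads were counted. All 20976 values above 0 were, within 0.01 of a read, whole multiples of 1 step fitted to these values. The step is 1.1761 after rounding, and the unrounded step was used. Whole reads (52494688) were thus recovered. Rows that differ by a copy suffix or repeat a name were summed to 23386 genes.

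CPM have exact Poisson intervals. The 32 ratios have exact conditional binomial (Clopper-Pearson) intervals. Reads are not independent molecules. For 0 reads the upper bound of the interval is 0.0703 CPM. The exonic length is the union of a gene's GENCODE M21 exons, found for 99.2% of coding genes. Coordinates are 1-based, from the GRCm38.p6 RefSeq table. Recovery was tested on simulated data. No count test was run, for want of replicates. The text names all members, the leading genes of each list, other list genes with at least 10 reads, defining markers and, for contrast, list genes with fewer reads, chosen after their values were seen. The members and the lists (113 further genes) were chosen with earlier results of these data known. A few planned items are not reported here. No likeness of pattern can be measured in 1 library. Protein motifs and protein lengths, planned in the design, were not used here; promoters were searched instead, for motifs chosen after the levels were known; the NF-kappaB motif was shortened by 1 letter after a first search. Alternatives were other lengths, totals, detection limits and backgrounds. Software was Python 3.11.15 with scipy 1.17.1, numpy 2.4.6, pandas 2.3.3 and matplotlib 3.10.9.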

Additional observations from a re-analysis of the deposited data

How the results depend on the processing

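No paired analysis was possible because there is just 1 library, and no replicate could be dropped. All 10 members had at least 1 read and 9 at least 50, Il11 being the exception; keeping each row on its own left 10 at 10 reads or more. Other totals multiply every CPM alike, by 1.09 for coding genes and by 1.34 without the 100 most abundant genes. Ratios moved with the length, and percentiles of the low members mostly with the background; the listed transcript and the coding lengths were chosen after seeing the data. In the order listed transcripts, coding length, the ratio Il6st to Lifr was 37.6 and 114.6, Osmr to Lifr 17.8 and 32.4, Il6st to Il6ra 25.3 and 32.9, and Lif to Il6 5.93 and 21.7. With no division Il6st to Il6ra was 65.6 and Lif to Il6 20.9. Every one of these 4 ratios stayed above 1 under the lengths tried. The listed length of Lifr was 3.39 kb, beside 3.28 kb of coding length and 10.8 kb of exonic length. It may be too short, which was not tested. Directions that turned were, with no division, Il6 to Il6ra (0.398), Stat6 to Stat3 (0.856), Lif to Osmr (0.425) and Il11ra1 to Lifr (0.734); with coding length, Il6 to Il6ra (0.868) and Stat6 to Stat3 (0.787); and with the listed transcripts, Lif to Osmr (0.579). The reads are the same in each version of a ratio, and only the length differs. Which length is right was not tested. Percentiles of Il6st stayed between 93.6 and 98.8, of Stat3 between 88.8 and 97.2 and of Lif between 75.6 and 93.0, whereas Lifr ranged from 17.9 to 50.02 and Il6 from 25.8 to 52.1, lowest where only genes with at least 10 reads were the background. Il11, with 41 reads, is the member whose level the depth limits most.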
